A study of Mus musculus with 17 samples.

Results

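Goblet cell genes and the transcription factors of the secretory lineage were followed here as a set of 10 named genes in sorted intestinal stem cells of mice: Muc2, Tff3, Agr2, Fcgbp, Zg16, Spink4, Klk1, Spdef, Atoh1 and Gfi1. A gene was taken in when a probe on the array carried its symbol as gene name. This held for 9 of the 10 genes, with 10 probes, out of 27626 genes tested in all. No probe carried the name Muc2, but the array's own description column calls 2 probes mucin 2. Their values are given beside the set under their transcript accessions and are not counted in it. The animals were LGR5-GFPki mice, in which green fluorescent protein reports Lgr5. They received 12 Gy of gamma-irradiation or none (0 Gy), and cells were sorted by flow cytometry 3 h later into LGR5hi and LGR5lo fractions. Each group had 4 arrays, 1 per sorted sample, except for LGR5lo cells at 0 Gy, which had 5. All groups share the reporter allele, and the labels call both fractions intestinal stem cells. Strain, age, the gates, and whether animals were pooled are not given in the sources used here.

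The stem cells at the crypt base give rise to absorptive cells and to secretory cells, the latter being goblet, Paneth, enteroendocrine and tuft cells. Notch signalling holds the choice: where it is low, ATOH1 is expressed and directs a progenitor to a secretory fate, with GFI1 and SPDEF acting after it. Goblet cells then make the mucus, whose gel is built from MUC2 and carries further secreted proteins such as FCGBP, ZG16, TFF3 and CLCA1.

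Values are log2 signals relative to the array's 75th percentile, so that 0 is the signal at that percentile and each unit is a doubling. They compare a probe between arrays and not probes with each other. The 75th percentile lay between 323 and 702 intensity units. On 15 arrays 58.9% to 73.9% of spots were well above background, while non-irradiated LGR5lo replicate 2 stood apart at 95.6%, with a spike-in slope of 0.79. For non-irradiated LGR5hi replicate 1 the scanner output was readable in part and the values were rebuilt from the series table, so counts above background are out of 16 arrays. All 12 probes were well above background on 16 of 16 arrays, and none was saturated. As a check of the labels, Lgr5 was higher in LGR5hi than in LGR5lo cells by 3.14 ± 0.28 log2 (SE; adjusted p = 2.85e-06) without irradiation and by 2.89 ± 0.29 (adjusted p = 1.18e-05) after it. Cdkn1a, the p53 target p21, rose after irradiation by 4.91 ± 0.31 in LGR5hi cells (adjusted p = 4.01e-08) and by 2.90 ± 0.30 in LGR5lo cells (adjusted p = 1.44e-05). Of 11 stem cell markers, 10 were higher in LGR5hi cells in either arm, and all 11 were above background on every flagged array of each group, LGR5lo included.

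The goblet and lineage genes separated the sorts and did not pass the test for irradiation. All 9 tested members were lower in LGR5hi than in LGR5lo cells without irradiation, with log2 differences from -3.44 (Zg16) to -2.10 (Spink4) and a median of -2.44 against -0.08 over all genes. Of all genes, 4.93% were called lower in this comparison and 9.54% were called in either direction. After 12 Gy all 9 were again lower, from -4.36 (Zg16) to -1.98 (Spink4), with a median of -2.93 against 0.05 over all genes, where 4.08% of genes were called lower and 6.27% in either direction. In each arm every LGR5hi array lay under every LGR5lo array for 9 of 9 members and both mucin 2 probes. Over all genes this held for 5.18% without irradiation and for 10.1% after it. RNA of bulk sorted cells was measured, so fewer cells of a type and less RNA per cell cannot be told apart.

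**Figure D1:**
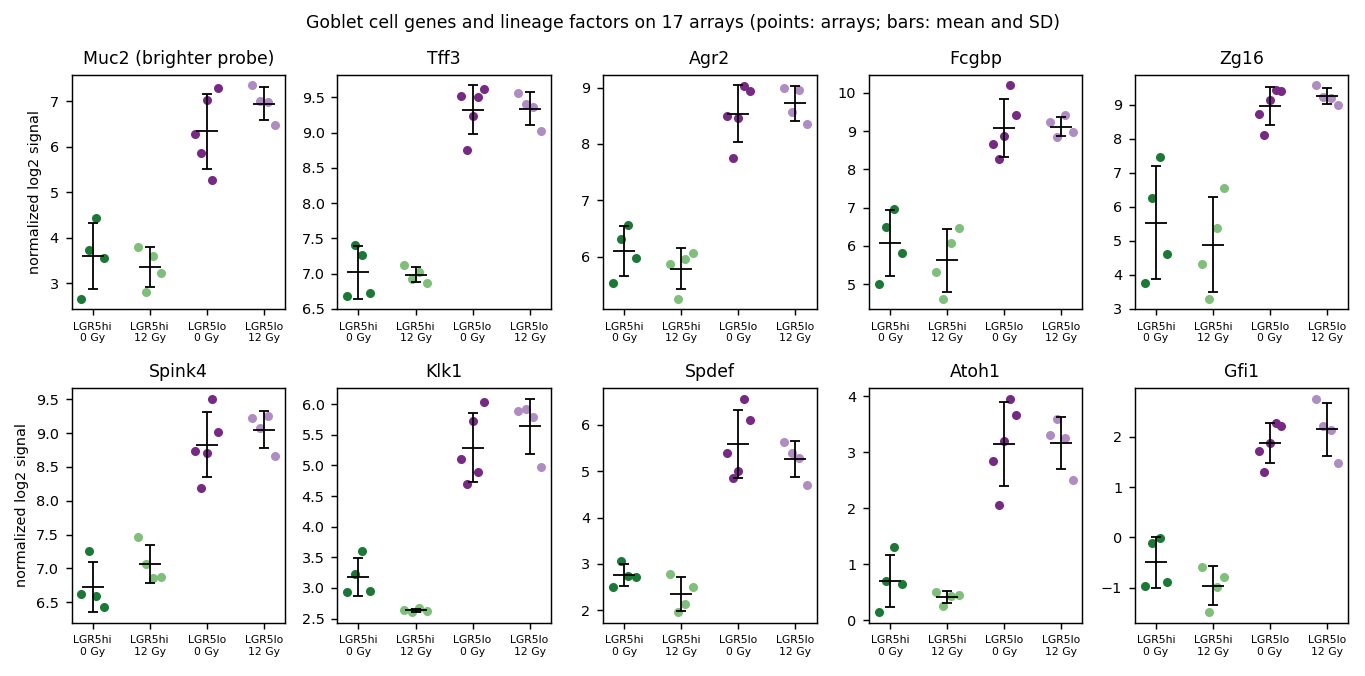
Normalized log2 signal (vertical axis, 0 = the array's 75th percentile) of the brighter mucin 2 probe and the 9 tested members in the 4 groups. Points are arrays and bars are the mean and SD; in every panel the LGR5hi points lie below all LGR5lo points of the same arm, and the vertical scales differ between panels.

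Since the members differed between the sorts together, the 250 bases before their gene starts were searched for E-boxes of the CAGCTG and CAGATG forms, on both strands. E-boxes are the kind of site that basic helix-loop-helix factors such as ATOH1 bind. The RefSeq promoter table of build GRCm38.p6 held windows for 7 of the 10 genes, and Tff3, Zg16 and Spink4 had no entry. CAGCTG, which reads the same on both strands, was found in the windows of 2 of the 7, Muc2 and Fcgbp, and in 13% of 32851 windows of that length. CAGATG was found in 1 of the 7, Klk1, and in 14.4% of all windows. The windows of Muc2 (chr7:141690090-141690339, plus strand, match starting 112 bases before the gene start) and Fcgbp (chr7:28070986-28071235, plus strand, 208 bases before it) are shown because they hold the CAGCTG form, which is in capitals.
Muc2: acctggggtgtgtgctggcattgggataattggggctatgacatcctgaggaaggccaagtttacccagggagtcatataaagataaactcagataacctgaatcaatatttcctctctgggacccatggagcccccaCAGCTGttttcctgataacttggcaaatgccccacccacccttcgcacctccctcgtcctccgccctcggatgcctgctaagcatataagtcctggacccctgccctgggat
Fcgbp: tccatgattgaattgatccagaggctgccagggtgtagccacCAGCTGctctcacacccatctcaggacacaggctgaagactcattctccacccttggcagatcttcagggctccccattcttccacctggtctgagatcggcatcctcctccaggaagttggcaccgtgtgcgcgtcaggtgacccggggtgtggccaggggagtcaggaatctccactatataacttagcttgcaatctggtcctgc
The match is a description of these letters and no measure of binding.

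Atoh1 encodes the basic helix-loop-helix factor without which the intestine forms no secretory cells (NM_007500; probe at mm9 chr6:64681161-64681220). Its normalized log2 signal was 0.15, 0.71, 1.30 and 0.65 on the non-irradiated LGR5hi arrays and 2.84, 2.06, 3.21, 3.96 and 3.67 on the non-irradiated LGR5lo arrays. After 12 Gy it was 0.51, 0.26, 0.43 and 0.45 in LGR5hi cells and 3.31, 3.60, 3.25 and 2.51 in LGR5lo cells. The sorts did not overlap in either arm, and the lowest LGR5lo value was that of replicate 2, the array that stood apart. Atoh1 was 5.45-fold lower in LGR5hi cells without irradiation (log2 difference -2.45 ± 0.33, adjusted p = 0.000176) and 6.75-fold lower after it (-2.75 ± 0.35, adjusted p = 0.000118).

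Gfi1, a zinc-finger repressor that acts after ATOH1 and favours goblet and Paneth over enteroendocrine fates, was measured by a probe at mm9 chr5:108145719-108145778 (NM_010278). It read -0.97, -0.11, -0.02 and -0.89 on the non-irradiated LGR5hi arrays and 1.72, 1.29, 1.87, 2.28 and 2.21 on the non-irradiated LGR5lo arrays. In irradiated cells the values were -0.58, -1.48, -0.98 and -0.79 in LGR5hi and 2.76, 2.22, 2.13 and 1.48 in LGR5lo. All 8 LGR5hi arrays were thus under their 75th percentile and all 9 LGR5lo arrays above it. The difference was -2.37 ± 0.29 log2 at 0 Gy (5.17-fold; adjusted p = 7.38e-05) and -3.10 ± 0.31 at 12 Gy (8.6-fold; adjusted p = 1.11e-05).

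Spdef encodes an ETS-family factor that drives goblet and Paneth cell maturation (NM_013891; mm9 chr17:27851401-27851460). The non-irradiated LGR5hi arrays gave 2.51, 3.07, 2.74 and 2.73 and the LGR5lo arrays 5.39, 4.84, 5.01, 6.56 and 6.10. Irradiated cells gave 2.78, 1.97, 2.13 and 2.50 in LGR5hi and 5.63, 5.38, 5.28 and 4.71 in LGR5lo. More than 1.5 log2 lay between the highest LGR5hi array and the lowest LGR5lo array in each arm. Spdef was lower in LGR5hi cells, with a log2 difference of -2.82 ± 0.32 at 0 Gy (7.06-fold; adjusted p = 2.99e-05) and of -2.91 ± 0.33 at 12 Gy (7.5-fold; adjusted p = 4.01e-05).

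Muc2 encodes the gel-forming mucin of the intestine. Its brighter probe, for ENSMUST00000026590 (mm9 chr7:148940000-148940059), read 2.66, 3.73, 4.44 and 3.56 on the non-irradiated LGR5hi arrays and 6.27, 5.87, 7.02, 5.27 and 7.28 on the LGR5lo arrays. After irradiation it read 3.80, 2.80, 3.60 and 3.22 in LGR5hi cells and 7.35, 7.0, 6.97 and 6.47 in LGR5lo cells. LGR5hi cells were lower, with a log2 difference of -2.75 ± 0.40 at 0 Gy (adjusted p = 0.000329) and of -3.59 ± 0.43 at 12 Gy (adjusted p = 5.48e-05). The other mucin 2 probe, for ENSMUST00000167366 (mm9 chr7:148886795-148887262), gave the same direction, at -3.26 ± 0.30 (adjusted p = 4.16e-06) and -3.40 ± 0.31 (adjusted p = 4.75e-06). The probes disagreed on non-irradiated LGR5lo replicate 4, which was the lowest of its group by the brighter probe (5.27) and the highest by the other (3.16).

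Agr2, a protein disulphide isomerase of the endoplasmic reticulum needed to make MUC2 (NM_011783; mm9 chr12:36730506-36730565), had similar values within each sort. LGR5hi arrays gave 5.54, 6.31, 6.57 and 5.98 at 0 Gy and 5.87, 5.26, 5.96 and 6.06 at 12 Gy. LGR5lo arrays gave 8.50, 7.76, 8.46, 9.03 and 8.94 at 0 Gy and 9.0, 8.57, 8.95 and 8.36 at 12 Gy. No LGR5hi array came within 1 log2 of an LGR5lo array. The differences were -2.44 ± 0.27 (5.41-fold; adjusted p = 2.99e-05) and -2.93 ± 0.29 (7.63-fold; adjusted p = 9.67e-06).

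Fcgbp encodes a large mucus protein with von Willebrand factor D domains (NM_001122603; mm9 chr7:28905517-28905576). It read 5.01, 6.50, 6.97 and 5.80 in non-irradiated and 5.31, 4.62, 6.08 and 6.46 in irradiated LGR5hi cells. LGR5lo cells read 8.66, 8.27, 8.86, 10.20 and 9.41 without irradiation and 9.23, 8.84, 9.41 and 8.98 after it. Fcgbp was 8.04-fold lower in LGR5hi cells at 0 Gy (-3.01 ± 0.45 log2, adjusted p = 0.00038) and 11.3-fold lower at 12 Gy (-3.49 ± 0.47, adjusted p = 0.000196). A dimmer Fcgbp probe for ENSMUST00000140004 (mm9 chr7:28873024-28873083) differed by -3.43 ± 0.39 and -4.34 ± 0.41, in the same direction.

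Zg16, a secreted lectin-like protein that binds Gram-positive bacteria in the mucus (NM_026918; mm9 chr7:134193837-134193896), had the largest differences of the set and the largest spread. The non-irradiated LGR5hi arrays read 3.77, 6.27, 7.46 and 4.60 and the irradiated ones 4.32, 3.30, 5.36 and 6.55. LGR5lo arrays read 8.73, 8.12, 9.14, 9.44 and 9.40 at 0 Gy and 9.57, 9.22, 9.20 and 8.99 at 12 Gy. The LGR5hi arrays thus spanned over 3 log2 in each arm, and the LGR5lo arrays under 1.5. Zg16 differed between LGR5hi and LGR5lo cells by -3.44 ± 0.68 log2 (10.8-fold; adjusted p = 0.00403) and by -4.36 ± 0.71 (20.6-fold; adjusted p = 0.00113). Its residual SD about the group means was 1.09, against 0.29 for Tff3 and a median of 0.37 over all genes. The mean level of 12 enterocyte markers moved with it: over the 8 LGR5hi arrays the deviations of Zg16 and of those markers from the group means had a Pearson r of 0.94. Other members gave 0.88 (Fcgbp), 0.82 (Agr2 and Klk1), 0.75 (Gfi1), 0.70 (Atoh1), 0.60 (Tff3), 0.25 (Spdef) and 0.00 (Spink4). Over the 9 LGR5lo arrays Zg16 had an r of 0.67 with the enterocyte markers. Over the 8 LGR5hi arrays Zg16 also had an r of 0.93 with the mean of 29 other goblet genes. There it had 0.88 with the mean of the other members and -0.78 with that of 11 stem cell markers. These arrays share the sort and the slide layout, and the part of enterocyte RNA in these values was not tested.

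Tff3, the trefoil peptide of goblet cells (NM_011575; mm9 chr17:31262279-31262338), was the most even member. It read 6.68, 7.40, 7.27 and 6.72 in non-irradiated and 7.12, 6.93, 7.02 and 6.87 in irradiated LGR5hi cells. LGR5lo cells gave 9.52, 8.76, 9.23, 9.50 and 9.62 at 0 Gy and 9.57, 9.41, 9.37 and 9.02 at 12 Gy. Tff3 differed between LGR5hi and LGR5lo cells by -2.31 ± 0.20 log2 (4.96-fold; adjusted p = 2.68e-06) and by -2.36 ± 0.21 (5.12-fold; adjusted p = 3.72e-06), nearly the same size in both arms.

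Spink4, a Kazal-type inhibitor of serine proteases secreted by goblet cells (NM_011463; mm9 chr4:40876206-40878330), had the smallest differences of the set. LGR5hi arrays read 6.62, 7.26, 6.59 and 6.43 at 0 Gy and 7.47, 7.06, 6.86 and 6.88 at 12 Gy. LGR5lo arrays read 8.74, 8.19, 8.70, 9.51 and 9.01, and 9.22, 9.07, 9.25 and 8.66 after irradiation. Spink4 was lower in LGR5hi cells, at -2.10 ± 0.25 log2 (4.3-fold; adjusted p = 4.45e-05) and -1.98 ± 0.26 (3.95-fold; adjusted p = 0.000146).

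Klk1, tissue kallikrein, is a serine protease that releases kinins (NM_010639; mm9 chr7:51484170-51484325). Its probe closely matches those of 3 Klk1b genes, with 27 of 30 overlapping bases the same for Klk1b8 and 24 of 30 for Klk1b21. The Klk1 and Klk1b4 probes are printed because they share the longest such stretch, 48 of 55 overlapping bases. Capitals mark the bases of the Klk1b4 probe that differ from the Klk1 probe within that overlap.
Klk1: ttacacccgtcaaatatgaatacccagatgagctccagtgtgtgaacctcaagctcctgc
Klk1b4: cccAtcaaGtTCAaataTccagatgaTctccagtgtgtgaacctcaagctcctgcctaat
Signal of either gene on the other's probe cannot be told apart, so the Klk1 values are uncertain in this respect. Klk1 read 2.94, 3.22, 3.61 and 2.95 in non-irradiated and 2.64, 2.61, 2.67 and 2.62 in irradiated LGR5hi cells. LGR5lo cells read 5.10, 4.69, 5.72, 4.90 and 6.03 at 0 Gy and 5.89, 5.92, 5.79 and 4.97 at 12 Gy. The irradiated LGR5hi arrays were close together, with an SD of 0.03. The log2 difference between LGR5hi and LGR5lo cells was -2.11 ± 0.27 (4.32-fold; adjusted p = 9.24e-05) and -3.01 ± 0.28 (8.05-fold; adjusted p = 5.95e-06). Of 10 Klk1b genes with a tested probe of that gene name, 7 were lower in LGR5hi cells at 0 Gy and 8 at 12 Gy. Of all genes, 4.93% and 4.08% were called lower. Klk1b26 was tested through a probe of another gene name and is not in this count. Klk1b4 differed by -2.51 ± 0.35 (adjusted p = 0.000183) and -2.75 ± 0.36 (adjusted p = 0.00016).

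**Figure D2:**
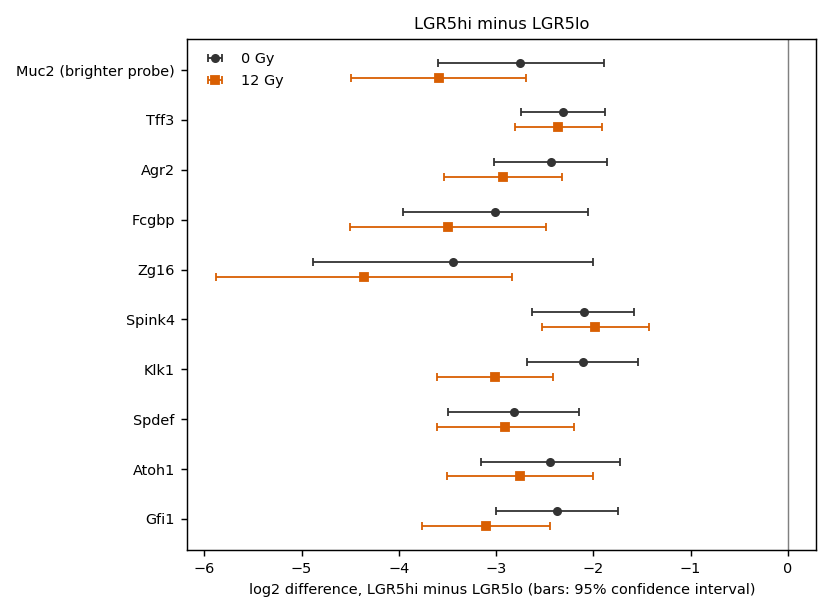
Log2 difference between LGR5hi and LGR5lo cells (horizontal axis, LGR5hi minus LGR5lo) for the brighter mucin 2 probe and the 9 members, at 0 Gy (circles) and 12 Gy (squares). Bars are 95% confidence intervals; every interval lies below 0, and Zg16 has the widest, from -4.88 to -2.0 at 0 Gy and from -5.88 to -2.84 at 12 Gy.

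Same-numbered LGR5hi and LGR5lo arrays of an arm came from samples of the same sex and deviated together. Every member and both mucin 2 probes were lower in LGR5hi cells in 4 of 4 such pairs of each arm. Because the sorts did not overlap in either arm, any pairing gives this count, so it adds no support. Slides 1 and 2 each held 2 replicates of every group, and slide 3 held non-irradiated LGR5lo replicate 5 alone. With the arrays of slide 1 or of slide 2 alone, the same lack of overlap fixes the sign of every difference between the sorts. Only the sizes can vary there. At 0 Gy the differences lay between -3.40 and -1.53 on slide 1 and between -3.52 and -2.03 on slide 2. At 12 Gy they lay between -5.58 and -1.88 on slide 1 and between -3.31 and -2.08 on slide 2.

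Whether irradiation changed these genes was tested within each sort. In LGR5hi cells 0 of 9 members passed the limma test and 0 had an unadjusted p under 0.05, where 13.5% of all genes were called. The differences ran from -0.65 (Zg16) to 0.34 (Spink4), 8 of the 9 were below 0, and the median was -0.42 against -0.02 over all genes. In LGR5lo cells 0 of 9 passed and 0 had an unadjusted p under 0.05, where 7.46% of all genes were called. The differences there ran from -0.33 (Spdef) to 0.35 (Klk1), with a median of 0.18 against -0.13 over all genes. That median had no stable sign: it was -0.01 without non-irradiated LGR5lo replicate 2, 0.68 in the fit of slide 1 and -0.19 in that of slide 2. The sign for Spdef turned, to 0.20, when arrays were centred on their median.

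The intervals show which sizes remain possible. For Tff3 the 95% confidence interval of the irradiation difference was -0.48 to 0.42 in LGR5hi cells and -0.41 to 0.44 in LGR5lo cells. For Zg16 it was -2.16 to 0.87 and -1.16 to 1.72, so a 2-fold fall in either sort lies within it. Atoh1 differed by -0.29 ± 0.35 (interval -1.04 to 0.46) in LGR5hi cells and by 0.02 ± 0.33 (-0.69 to 0.73) in LGR5lo cells. Gfi1 differed by -0.46 ± 0.31 (-1.12 to 0.20) and 0.27 ± 0.29 (-0.35 to 0.90), and Spdef by -0.42 ± 0.33 (-1.12 to 0.29) and -0.33 ± 0.32 (-1.0 to 0.34). The brighter mucin 2 probe gave -0.24 ± 0.43 (-1.15 to 0.66) and 0.60 ± 0.40 (-0.25 to 1.46).

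Klk1 had the smallest p in LGR5hi cells, at -0.54 ± 0.28 log2 (adjusted p = 0.28). It was the single member whose irradiated LGR5hi arrays, at most 2.67, all lay under the non-irradiated ones, at least 2.94. Such a separation downwards was seen for 13% of all genes, so 1 of 9 members is near the background. In LGR5lo cells no member separated downwards, which 4.84% of all genes did, or upwards, which 5.95% did.

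The irradiation effect in LGR5hi cells minus that in LGR5lo cells passed for 0 of 9 members, where 0.0398% of all genes (11) were called. The differences ran from -0.93 (Zg16) to 0.12 (Spink4). Before adjustment Klk1 alone passed 0.05 in limma, at -0.90 ± 0.39 (adjusted p = 0.715; interval -1.73 to -0.07). In the order of group means both LGR5lo groups stood above both LGR5hi groups for all 9. Within a sort no member passed the limma test for irradiation, although the Klk1 arrays of LGR5hi cells did not overlap.

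**Figure D3:**
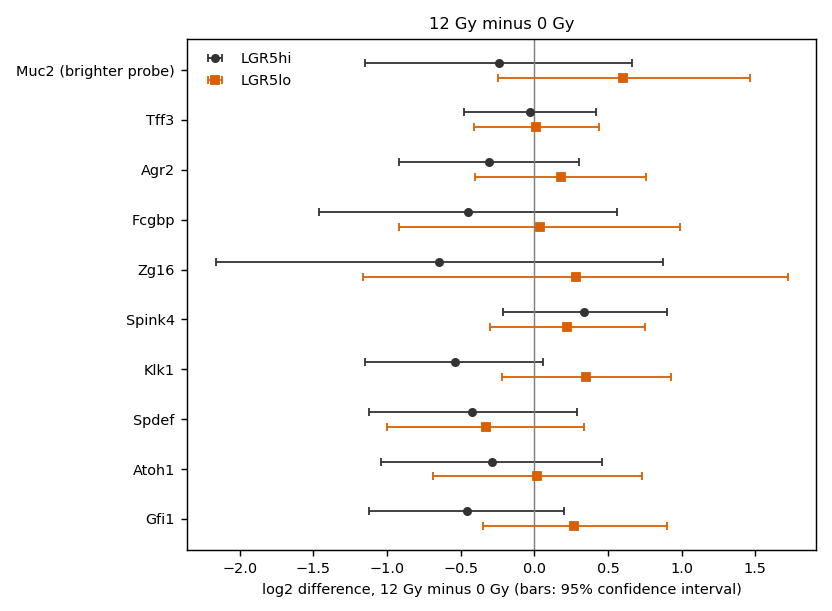
Log2 difference between irradiated and non-irradiated cells (horizontal axis, 12 Gy minus 0 Gy) for the brighter mucin 2 probe and the 9 members, in LGR5hi (circles) and LGR5lo cells (squares). Bars are 95% confidence intervals, and each of them includes 0.

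Further goblet cell genes were read from a list of 29. Without irradiation 21 of the 29 were lower in LGR5hi cells and 0 higher, with a median of -2.09. After irradiation 20 were lower and 0 higher, with a median of -2.40. Guca2a, which encodes guanylin, differed by -2.65 ± 0.26 (adjusted p = 9.18e-06), and Rep15, a RAB15 effector, by -3.39 ± 0.38 (adjusted p = 3.05e-05). Tpsg1, a transmembrane tryptase, differed by -3.17 ± 0.36 and Bcas1 by -2.74 ± 0.31. In irradiated cells Capn9, a calpain protease of the gut, differed by -4.67 ± 0.48 (adjusted p = 1.32e-05) and Slc12a8, a solute carrier, by -2.45 ± 0.24 (adjusted p = 8.1e-06). With arrays centred on their median, 13 of the 29 were lower at 0 Gy, while the count for the 9 members stayed at 9.

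For irradiation 1 of these 29 goblet genes was called higher and 1 lower in LGR5hi cells, where 13.5% of all genes were called. In LGR5lo cells 1 was called higher and 0 lower, where 7.46% of all genes were called. S100a6, a calcium-binding protein found in many cell types, rose by 2.81 ± 0.40 in LGR5hi (adjusted p = 0.000148) and by 1.29 ± 0.38 in LGR5lo cells (adjusted p = 0.0494). In LGR5lo cells 0 of the list rose, and 1 fell, without non-irradiated LGR5lo replicate 2. Creb3l4, a membrane-bound transcription factor of the endoplasmic reticulum, fell by 1.07 ± 0.31 in LGR5hi cells (adjusted p = 0.0318). The other 27 listed genes did not pass in LGR5hi cells, nor the other 28 in LGR5lo cells.

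Enzymes that build mucin sugar chains were read from another list. Of 15 tested, 8 were lower in LGR5hi cells at 0 Gy and 7 at 12 Gy, with medians of -1.44 and -0.92, and 2 and 2 with arrays centred on their median. Gcnt3, a core 2 and core 4 branching enzyme, differed by -2.44 ± 0.38 (adjusted p = 0.000506) and Chst4, a sulphotransferase, by -2.72 ± 0.44 (adjusted p = 0.000757) at 0 Gy. After irradiation 3 of the 15 rose and 1 fell in LGR5hi cells, where 13.5% of all genes were called, and with arrays centred on their median 1 rose and 0 fell. In LGR5lo cells 1 of the 15 rose, a share near the 7.46% of all genes. B3gnt6, the core 3 synthase of gut mucins, rose by 2.67 ± 0.29 in LGR5hi (adjusted p = 1.19e-05) and by 1.44 ± 0.27 in LGR5lo cells (adjusted p = 0.00377). In LGR5hi cells Chst4 rose by 1.75 ± 0.46 (adjusted p = 0.018) and Gcnt3 by 1.49 ± 0.40 (adjusted p = 0.0185). Galnt12, which starts O-glycan chains, fell by 0.85 ± 0.24 (adjusted p = 0.026).

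Genes of the Notch pathway and other factors of the secretory lineage differed between the sorts in both directions. Of 24 genes, 8 were lower and 4 higher in LGR5hi cells at 0 Gy, with a median of -0.08, and 10 were lower and 3 higher at 12 Gy. With arrays centred on their median, 3 were lower and 3 higher at 0 Gy, and 7 lower and 0 higher at 12 Gy. The lower ones at 0 Gy were the Notch ligands Dll1 and Dll4, the enteroendocrine factors Neurog3 and Insm1, the tuft cell factor Gfi1b, and Bhlha15, Klf4 and Cbfa2t3. Insm1 differed by -3.08 ± 0.23 (adjusted p = 7.98e-07) and Neurog3 by -2.46 ± 0.21 (adjusted p = 2.53e-06). The higher ones were the receptor Notch2, its nuclear partner Rbpj, the Notch target Hes1 and the progenitor factor Sox9. Klf4, a factor needed for goblet cell maturation, was also the gene whose values were closest to those of Klk1.

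After irradiation several Notch genes changed while the lineage factors of the set did not pass. In LGR5hi cells 2 of the 24 listed genes rose and 4 fell, where 13.5% of all genes were called. In LGR5lo cells 2 rose and 2 fell, where 7.46% of all genes were called. With arrays centred on their median, 1 rose and 1 fell in LGR5hi cells. In LGR5lo cells 2 rose and 0 fell under that centring, so no fall there stayed called. Jag2, a Notch ligand, rose by 4.19 ± 0.29 in LGR5hi (adjusted p = 1.02e-07) and by 2.23 ± 0.27 in LGR5lo cells (adjusted p = 8.42e-05). Jag1 rose by 1.39 ± 0.19 and 1.39 ± 0.18. Lfng, a glycosyltransferase that modifies Notch receptors, fell by 2.95 ± 0.24 (adjusted p = 7.48e-07) and by 1.93 ± 0.23 (adjusted p = 6.57e-05). Dll4 fell by 1.24 ± 0.23 in LGR5hi cells (adjusted p = 0.00169) and Neurog3 by 0.90 ± 0.21 in LGR5lo cells (adjusted p = 0.0158). For the difference between the sorts in these effects 0 of 24 passed, or 1 with the numbered pairs as a block.

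Markers of other cell types moved with the sort as well. All 14 enteroendocrine markers were lower in LGR5hi cells in each arm, with medians of -3.73 and -3.97, and so were 11 and 8 of 11 tuft cell markers, with medians of -1.89 and -1.87. With arrays centred on their median, 1 and 5 of the tuft markers were lower, with medians of -1.42 and -1.95. Without non-irradiated LGR5lo replicate 2, 11 and 11 were lower. Of the other lists at 0 Gy, 1 of 11 tested Paneth, 1 of 12 enterocyte, 2 of 11 leukocyte and 0 of 7 stromal markers were lower. With the numbered pairs as a block these counts were 0, 0, 1 and 0. At 12 Gy the counts were 0, 2, 0 and 0, with medians of -0.85, -1.10, 0.12 and 0.17. Of all genes, 4.93% were called lower at 0 Gy and 4.08% at 12 Gy. The summed signal of the 9 members, in multiples of the 75th percentile signal, was 308 to 670 in non-irradiated LGR5hi and 1589 to 3991 in non-irradiated LGR5lo cells. That of the enteroendocrine markers was 27.2 to 68.3 and 530 to 731, and that of the tuft markers 12.2 to 29 and 52.1 to 98. The Paneth markers summed to 1197 to 1979 and 1221 to 3012, and the enterocyte markers to 164 to 831 and 285 to 756, with the groups overlapping. Leukocyte markers summed to 46.2 to 67.3 and 46.1 to 125. A sum follows its brightest probes, so it compares groups within a list and not lists or cell types with each other. Goblet markers were above background in both sorts, and the part of other cell types in the members' difference was not tested.

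**Figure D4:**
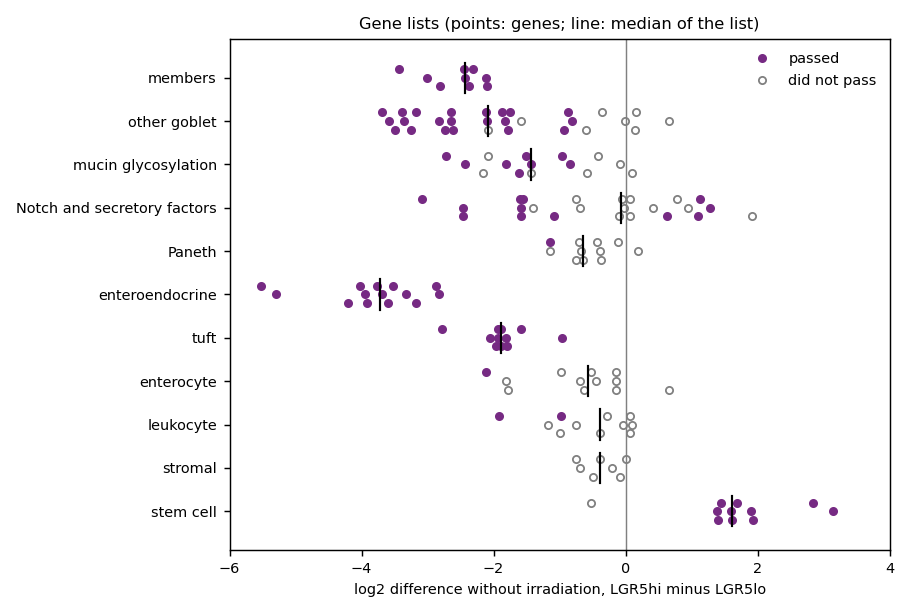
Log2 difference between LGR5hi and LGR5lo cells without irradiation (horizontal axis) for the 9 members and for 10 gene lists (vertical axis). Points are genes, filled where the limma test was passed and open where it was not, and lines are medians; the members, the enteroendocrine and the tuft cell markers lie wholly below 0, and 10 of 11 stem cell markers lie above it.

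Deviations from array to array within a group were also compared. The deviations from the group means correlated positively in 36 of 36 pairs of members over the 17 arrays, with a median Pearson r of 0.70. The lowest was 0.20 for Zg16 with Spink4 and the highest 0.90 for Agr2 with Fcgbp. Without non-irradiated LGR5lo replicate 2 the median was 0.60, with 36 of 36 pairs still above 0. Other lists gave a median r over 17 arrays of 0.86 for enterocyte, 0.72 for tuft and 0.56 for other goblet markers. It was 0.55 for Paneth and for stem cell markers, 0.49 for mucin glycosylation and 0.32 for enteroendocrine genes. Stromal (0.18) and leukocyte markers (0.17) and the Notch and secretory list (0.06) were lowest. Over the 17 arrays each of these lists also held pairs below 0. Without non-irradiated LGR5lo replicate 2 the tuft markers had 55 of 55 pairs above 0, with a median r of 0.83 and a lowest of 0.28. These points share arrays and their scaling, so the values are descriptions. Among non-irradiated LGR5lo arrays, replicate 2 lay under the group mean for 9 of 9 members, by 0.74 log2 on average, and replicate 5 above it for 9 of 9, by 0.42. In non-irradiated LGR5hi cells replicate 1, the rebuilt array, lay lowest (-0.59 on average) and replicate 3 highest (0.55). The enterocyte markers of those LGR5hi arrays deviated by -0.93 and 2.0, and were lowest on replicate 4 (-1.61), where the members deviated by -0.29.

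**Figure D5:**
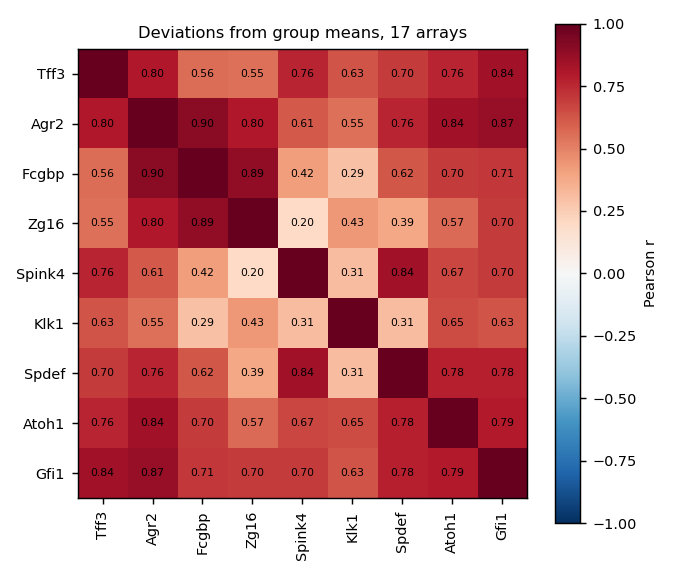
Pearson r between the deviations of 9 members (rows and columns) from their group means over 17 arrays, from -1 (blue) to 1 (red). All 36 pairs are above 0, and the 3 lowest involve Spink4 or Klk1.

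Genes whose values ran closest to each member over the 17 arrays were named by Pearson r, which here mostly follows the step between the sorts. For Tff3 it was Guca2a (r = 0.99), for Spdef Selenom (0.994), for Klk1 Klf4 (0.984) and for Spink4 Hgfac (0.984). Atoh1 ran closest to Klk1b8 (0.993) and, without non-irradiated LGR5lo replicate 2, to Rgs2 (0.995). Agr2 ran closest to Gfi1 and Capn9 (0.99 each), Fcgbp to Agr2 (0.984) and Zg16 to Fcgbp (0.978). Without that array the closest were Capn9 for Agr2 (0.992), Surf4 for Fcgbp (0.985) and Aplp1 for Zg16 (0.979). For Gfi1 the closest gene was Capn9 (0.992), and for the brighter mucin 2 probe it was Klk1 (0.976).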

How the data were processed

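RNA was hybridised to 17 single-colour Agilent arrays. Per spot, the scanner files deposited by the authors give a linear Cy3 intensity, background-subtracted and detrended by Agilent Feature Extraction 10.7.3.1 per the file headers, and not normalized between arrays. The deposited series table holds log2 values by the authors. From the values these are scaled to each array's 75th percentile and centred for each probe. For non-irradiated LGR5hi replicate 1 the file had 15329 of 62976 spots readable, none of them a member's probe, and its values were rebuilt from that table. On the whole arrays the same step gave 100% of probes within 0.02 log2.

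Outlier spots were left out, replicate spots averaged and log2 signals scaled to the 75th percentile. A signal well above background on 4 or more arrays was required, which kept 41480 of 55681 non-control probes. Symbols were updated through RefSeq accessions, which matched 31115 probes, and the brightest kept probe of each symbol was tested. Probe positions are the mm9 ones of the files, and exon or UTR placement was not analysed here. A model of 4 group means was fitted to the 17 arrays in limma 3.58.1 under R 4.3.3 (lmFit, eBayes), with Benjamini-Hochberg adjustment over 27626 genes and a threshold of 0.05, and the pipeline was tested on simulated data. Errors beside log2 differences are standard errors. Other steps used Python 3.11.15, numpy 2.4.6, pandas 2.3.3 and matplotlib 3.10.9.

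Same-numbered LGR5hi and LGR5lo arrays of an arm deviated together (r from 0.122 to 0.457 in 8 pairs). Between the arms, same-numbered arrays of a sort had r from -0.1 to 0.222, so the ranges overlap. Same-numbered sorts of an arm also share sex, while the same number differs in sex between the arms. These values therefore do not settle whether numbers pair the sorts. The main model has no pairing, and blocks for replicate were tried as other settings. The labels do not say that replicates came from separate animals, so p-values measure the spread between these samples, and the number of arrays limits the precision.

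The members and gene lists were chosen with earlier results of these data known. Named genes were all members, up to 4 genes of a list with the smallest p in a comparison, Lgr5 and Cdkn1a as checks, and the genes nearest to each member; the genes of the secretory lineage called at 0 Gy and Klk1b4 were named after their values were seen. Other settings tried were median centring, quantile normalization, normexp (offset 50, on the 16 whole arrays), a filter of 8 arrays or none, averaged probes, the values of the series table, sex as a covariate, blocks for slide or replicate, fits limited to the groups compared, and leaving out single arrays. Fits of single slides and without non-irradiated LGR5lo replicates 2 and 4 were added after seeing the data.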

Additional observations from a re-analysis of the deposited data

Results flagged for a closer look

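Klk1 on irradiated LGR5lo replicate 4 lay far from the other 3 arrays of its group, at 4.97 against a nearest value of 5.79, a gap of 0.87 of the group's range. It was the single such array among 48 combinations of probe and group, where chance alone marks about 1 in 20. That array lay under its group mean for 9 of 9 members.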

How the results depend on the processing

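Under the other settings named above and with each array left out in turn, 9 of 9 members stayed called between the sorts in each arm and 0 of 9 for irradiation in either sort and for the difference of effects. The replicate block changed no call of a member: with arm and number as a block, 9 and 9 were called between the sorts. With each array left out, member differences between the sorts ran from -4.08 to -1.92 at 0 Gy and from -4.92 to -1.91 at 12 Gy. On single slides, with 2 arrays per group, the members called lower at 0 Gy were 0 on slide 1 and 5 on slide 2. At 12 Gy they were 8 on slide 1 and 2 on slide 2. Every difference was below 0, which the lack of overlap between the sorts fixes. Of all 27626 genes, 114 on slide 1 and 243 on slide 2 were called in either direction at 0 Gy, and 322 and 118 at 12 Gy. Of the 29 other goblet genes, 1 (slide 1) and 3 (slide 2) were then called lower at 0 Gy, and 15 and 0 at 12 Gy. Median centring turned Spdef in irradiated LGR5lo cells (0.20) and the difference of effects of Spink4 (-0.43), neither called. Leaving out non-irradiated LGR5lo replicate 2 turned Tff3, Fcgbp and Atoh1, among others, for irradiation in LGR5lo cells. Signs also turned on single slides, and none of these differences was called. For irradiation in LGR5lo cells slide 2 turned Tff3 (-0.18), Agr2 (-0.09), Fcgbp (-0.34), Zg16 (-0.19), Spink4 (-0.15), Atoh1 (-0.70), Gfi1 (-0.27) and the dimmer mucin 2 probe (-0.49), and slide 1 turned Spdef (0.39). In LGR5hi cells slide 1 turned the brighter mucin 2 probe (0.11). For the difference of effects slide 2 turned Tff3 (0.12), Fcgbp (0.23), Zg16 (0.11), Spdef (0.37), Atoh1 (0.17) and the dimmer mucin 2 probe (0.37), and slide 1 turned Spink4 (-0.35). The array median relative to the 75th percentile was -1.58 log2 on non-irradiated LGR5lo replicate 2. On the other whole arrays it lay between -3.61 and -2.90, so median centring shifts that array unlike the rest. Median centring moved the median of all genes to 0.40 for irradiation in LGR5lo cells and to 0.39 between the sorts at 0 Gy. The genes called over the whole array were then 1221 in place of 3718 and 978 in place of 2062 for irradiation in LGR5hi and LGR5lo cells, and 958 in place of 2636 and 666 in place of 1732 between the sorts. With normexp, 979 genes were called between the sorts at 0 Gy and 2278 for irradiation in LGR5hi cells. With arm and number as a random block they were 4180 and 2884 between the sorts. Leaving out single arrays gave 1439 to 4205 calls between the sorts at 0 Gy.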

Other observations

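On non-irradiated LGR5lo replicate 4, 8 of the 9 members lay above the group mean, and the average over the 9 was 0.53 log2 above it. Fcgbp (10.20), Spdef (6.56), Atoh1 (3.96), Spink4 (9.51) and Agr2 (9.03) were at their highest of all arrays. So were the dimmer mucin 2 probe (3.16) and the dimmer Fcgbp probe (5.99). Klk1 (4.90), the exception, and the brighter mucin 2 probe (5.27) were low on the same array, against group means of 5.29 and 6.34. The recorded spike-in slope of this array is 0, and the part of that array's quality in these values was not tested.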
